A study of Drosophila melanogaster with 2 samples.

Results

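The genes described here encode the machinery that starts transcription: the subunits of RNA polymerases I, II and III, the TfII factors, the TATA-binding protein with its associated factors (Tafs), and Mediator. They were chosen by symbol, as every protein-coding gene whose symbol begins with Polr1, Polr2, Polr3 or TfII, or with Taf or MED and a digit, together with Tbp. The rule gave 80 of the 13968 protein-coding genes of the fly's nuclear chromosomes. Of these, 7 carried a Polr1 symbol, 13 a Polr2 symbol, 10 a Polr3 symbol and 9 a TfII symbol, 16 were Tbp or a Taf, and 25 were Mediator subunits.

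Binding was measured by chromatin immunoprecipitation and sequencing (ChIP-seq), in which DNA held by a protein is recovered with an antibody. The chromatin came from whole Drosophila melanogaster embryos aged 0 to 16 hours, of a transgenic strain that makes CG31441 joined to eGFP, and the antibody was against GFP. There was 1 group with 2 biological replicates and no second genotype, treatment or stage, so no condition could be compared and no test was run. The tagged protein was the one recovered, the embryos held all tissues together, and which cells or hours gave a peak cannot be told apart.

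RNA polymerase I makes ribosomal RNA, polymerase II makes messenger RNA, and polymerase III makes transfer RNA and other small RNAs. At polymerase II promoters TBP and the Tafs form TFIID, which finds the core promoter, TFIIB and TFIIF bring in the polymerase, and Mediator connects it to factors bound at enhancers. These genes are used in nearly every cell, and in the compact fly genome many such genes lie head to head with a neighbour, so that 1 stretch of DNA serves 2 transcription start sites (TSSs).

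The DNA under the peaks was often rich in A and T. The number of windows shown was limited to 5, from 5 of the 6 groups. Each gives the 101 bases around the summit, the highest point of the peak. In each of these 5 groups it is the strongest promoter peak whose window held no transcribed untranslated base. No window of the Tbp and Taf group is shown, which does not mean that its peaks failed this rule. The summit of its strongest peak, at Taf5, lay outside annotated genes, 156 bp from the Taf5 TSS and 145 bp from that of Pex6. Bases are from the RefSeq genome on dm6, 5′ to 3′ on the strand of the named gene, and capitals mark unbroken runs of at least 8 A or T. The windows are chr3L:21031534-21031634 on the plus strand for Polr3E, chr3R:14125640-14125740 on the plus strand for Polr2B, chr3L:654209-654309 on the minus strand for MED30, chr2L:10431014-10431114 on the plus strand for TfIIB and chr2L:19133647-19133747 on the minus strand for Polr1D.
Polr3E: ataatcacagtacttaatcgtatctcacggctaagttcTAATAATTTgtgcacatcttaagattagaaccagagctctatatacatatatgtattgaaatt
Polr2B: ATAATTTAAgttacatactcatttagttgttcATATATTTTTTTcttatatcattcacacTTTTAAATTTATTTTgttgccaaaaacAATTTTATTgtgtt
MED30: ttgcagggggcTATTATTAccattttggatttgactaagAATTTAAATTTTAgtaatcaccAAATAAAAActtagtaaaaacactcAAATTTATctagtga
TfIIB: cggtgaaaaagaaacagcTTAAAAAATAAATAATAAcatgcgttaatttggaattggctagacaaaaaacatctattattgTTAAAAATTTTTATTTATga
Polr1D: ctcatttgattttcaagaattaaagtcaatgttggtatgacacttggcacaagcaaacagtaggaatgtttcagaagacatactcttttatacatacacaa

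The windows differed in how the A and T were arranged. The longest run was 18 bases at TfIIB, 15 at Polr2B and 13 at MED30, against 9 at Polr3E, although Polr3E had the highest signal of the 5. At Polr1D, the weakest of the 5 peaks, the longest run was 7 bases and no letter is in capitals.

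A gene was counted as bound when a summit of the conservative peak list, the shorter of the authors' thresholded lists for both replicates together, lay within 500 bp of one of its TSSs. By this count 22 of the 80 genes were bound, 27.5% (95% exact interval 18.1 to 38.6%), against 18.2% of all protein-coding genes. The background share lay inside the interval by a narrow margin. The share was 37.5% for Tbp and the Tafs (6 of 16), 30.8% for polymerase II (4 of 13), 28% for Mediator (7 of 25), 22.2% for the TfII factors (2 of 9), 20% for polymerase III (2 of 10) and 14.3% for polymerase I (1 of 7). In each group the interval held the background share, and it ran from 15.2 to 64.6% for Tbp and the Tafs and from 12.1 to 49.4% for Mediator. The intervals treat genes as separate draws and cover counting error only.

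**Figure D1:**
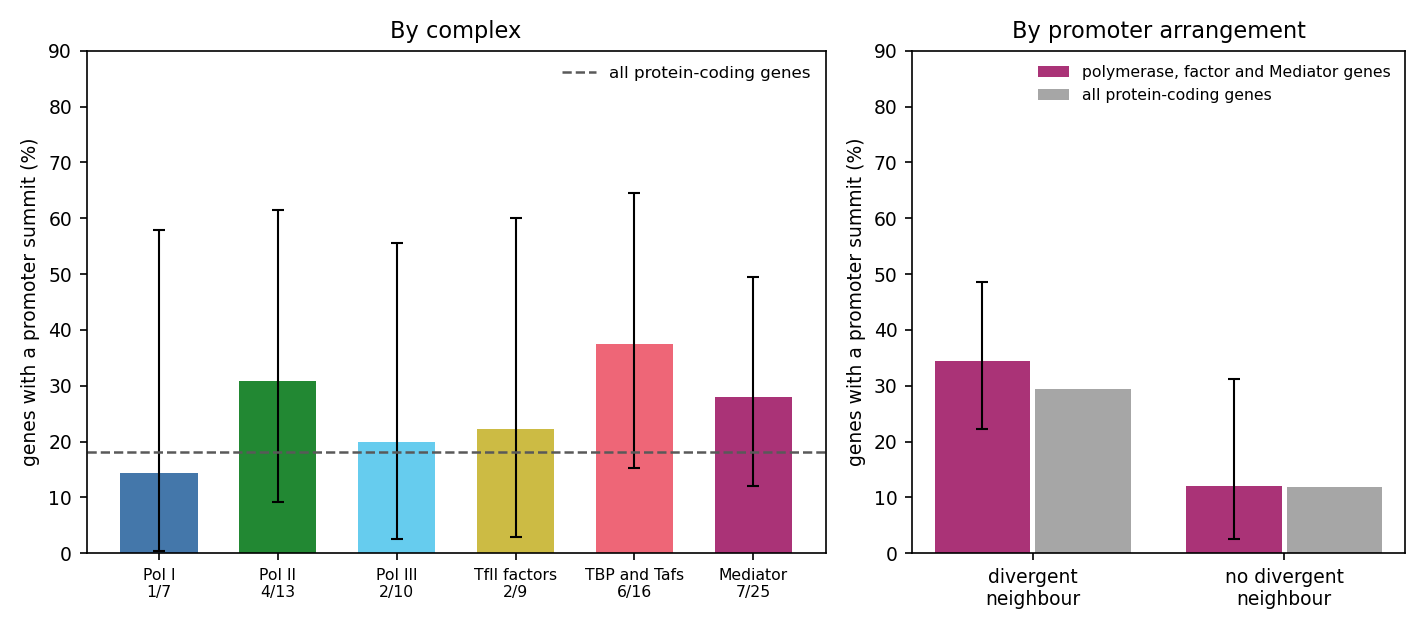
Share of genes with a promoter summit in the conservative list, in percent, by complex (left) and by whether the promoter faces a divergent neighbour (right). Bars are shares, lines are 95% exact binomial intervals, and the dashed line in the left panel is the 18.2% of all genes, which lies inside the interval of each of the 6 complexes.

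In the other lists too the share of machinery genes was above the background share. In the less strict list of the series 22 of the 80 genes had a promoter summit, 27.5% against 21.0% of all genes. Replicate 1's thresholded list gave 23 genes (28.8% against 17.3%), that of replicate 2 gave 24 (30% against 18.4%), and 18 genes were in both (22.5% against 13.0%). In the ranked lists, which hold many more and weaker peaks, the counts were 34 genes for replicate 1 (42.5% against 35.1%), 41 for replicate 2 (51.2% against 43.1%) and 31 for both (38.8% against 30.9%). For the less strict list and the ranked lists the interval held the background share. For the thresholded lists the background share was just below the interval. The interval was 19.2 to 40.0% for replicate 1, 20.3 to 41.3% for replicate 2 and 13.9 to 33.2% for both. All these lists come from the same 2 libraries and are not separate evidence.

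Promoter arrangement went with these counts. A divergent neighbour, meaning a gene on the opposite strand whose TSS lay upstream within 1000 bp, was present at 55 of the 80 genes, 68.8%, against 36.2% of all genes. Among genes with such a neighbour 19 of the 55 were bound, 34.5% (95% exact interval 22.2 to 48.6%), against 29.4% of all genes so arranged. Among genes without one 3 of 25 were bound, 12% (interval 2.55 to 31.2%), against 11.9%. Within each arrangement the machinery genes thus stood closer to the background than in the pooled count. The neighbour was most frequent in Mediator (19 of 25 genes) and among Tbp and the Tafs (12 of 16), followed by polymerase III (7 of 10), polymerase II (8 of 13), polymerase I (4 of 7) and the TfII factors (5 of 9).

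The signal given below for each peak is the authors' value, whose scale is not stated, so it is compared within a list and not between lists. Where a gene had more than 1 promoter summit the strongest was used. Distances are from the summit to the nearest TSS of the gene named. A peak that serves a pair of genes was counted for both.

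Among the subunits of polymerase II, Polr2H, the RPB8 subunit that all 3 polymerases share, had the strongest peak of the 80 genes. Its signal was 792 in the conservative list, 427 in replicate 1 and 378 in replicate 2, and it was the highest of the 80 genes in all 3 lists. The conservative value was at the 99.9th percentile of all peaks. The peak ran from 21728142 to 21729446 on chromosome 3L, a width of 1305 bp. The conservative list held 2 summits within 500 bp of the Polr2H TSS, each its own entry. The stronger of these lay 99 bp upstream of Polr2H and 27 bp upstream of the divergent gene CG11247.

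Polr2B, the second-largest subunit, which forms the active site with Polr2A, had a signal of 442, with 285 in replicate 1 and 153 in replicate 2. Its summit lay 101 bp upstream and was shared with 140up. Polr2F, the RPB6 subunit found in all 3 polymerases, had a signal of 196, with 95.03 in replicate 1 and 88.8 in replicate 2. No other gene's TSS lay within 500 bp of that summit. It was 74 bp upstream of the Polr2F TSS, outside Polr2F and inside an annotated intron of another gene. Polr2I, the RPB9 subunit, had a signal of 193, with 133 in replicate 1 and 62.5 in replicate 2, at a summit shared with su(Hw), which encodes an insulator protein. All 4 bound polymerase II genes had a thresholded promoter peak in both replicates.

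The other 9 polymerase II genes, Polr2A, Polr2C, Polr2D, Polr2E, Polr2G, Polr2J, Polr2K, Polr2L and Polr2M, had no conservative promoter summit. Polr2A, the largest subunit and bearer of the C-terminal repeat domain, had a thresholded peak in replicate 2 alone, with a signal of 56.3. Its nearest conservative summit was 6405 bp away. Polr2E and Polr2G had a ranked peak in replicate 2 alone, with signals of 38.9 and 38.4. The remaining 6 had no promoter summit in any list of either replicate.

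In polymerase I, the 1 bound gene was Polr1D, a small subunit that polymerases I and III share. Its signal was 141, with 92.3 in the thresholded list of replicate 1, and in replicate 2 it was in the ranked list alone, at 40.7. Polr1D has 2 annotated TSSs, and the summit lay within an intron, 214 bp upstream of the TSS that is inside the gene. It was 119 bp upstream of brat, which encodes a translational repressor. With 1 TSS per gene Polr1D was not counted as bound. Polr1A and Polr1B, the 2 largest subunits, had no promoter summit in any list of either replicate.

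In polymerase III, Polr3E, which belongs to the subcomplex that acts in initiation and termination, had a signal of 532, the highest after Polr2H. The value was 348 in replicate 1 and 199 in replicate 2, and the summit lay between Polr3E, 241 bp away, and CG10584, 224 bp away. Polr3F, which contacts the polymerase III initiation factors, had a signal of 169. It was in the thresholded list of replicate 2 at 69.4 and in the ranked list alone of replicate 1 at 95.7. It was the 1 bound gene whose summit lay downstream of its nearest TSS, by 27 bp, and that summit was 190 bp upstream of PyK, the pyruvate kinase gene.

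Of the TfII factors, TfIIB, which joins TBP to the polymerase, had a signal of 275, with 185 in replicate 1 and 72.8 in replicate 2. The summit lay 274 bp upstream of TfIIB and 146 bp upstream of Bug22. TfIIFalpha, the large subunit of TFIIF, had a signal of 245, with 184 in replicate 1 and 62.9 in replicate 2. Its summit lay 175 bp upstream, within a 5′ untranslated exon of the annotation, and shared the promoter with CG1024. Their signals were the middle pair of the 22 bound genes and so set the median, 260.3.

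Tbp and the bound Tafs covered a wide range, with 3 signals of 400.3 or more and 3 of 168 or less. Taf5, a core subunit of TFIID with WD40 repeats, had a signal of 503, with 268 in replicate 1 and 223 in replicate 2, at a promoter shared with Pex6, a peroxisome biogenesis gene. Taf2, which contacts DNA around the start site, had a signal of 417, with 259 in replicate 1 and 153 in replicate 2, at a promoter shared with the calpain gene CalpB. Taf12, a histone-fold subunit that pairs with Taf4, had a signal of 400.3, with 265 in replicate 1 and 139 in replicate 2. Its summit was 7 bp from the Taf12 TSS and 46 bp from that of Ho, the haem oxygenase gene.

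Taf13, the histone-fold partner of Taf11, had a signal of 168, with 114 in the thresholded list of replicate 1 and 52.9 in the ranked list alone of replicate 2. Tbp had a signal of 132 and reached neither replicate's thresholded list, with 71.2 and 52.8 in the ranked lists of replicates 1 and 2. Its summit lay 18 bp upstream and no other gene shared it. Taf8 had the weakest peak of the 22, with a signal of 59.3, and was absent from the less strict list. It had a ranked peak of 69.5 in replicate 1 and none in replicate 2, and the summit was 328 bp from both its own TSS and that of Mvb12.

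Taf1, the largest subunit of TFIID, had no promoter summit in any of these lists, and its nearest conservative summit was 17759 bp away. Taf10 and Taf10b, divergent neighbours of each other, also had none. Taf4 had thresholded promoter peaks in both replicates, at 118 and 106, without a summit in the conservative or the less strict list.

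Mediator had 7 bound genes, and all 7 had a thresholded promoter peak in replicate 1. MED30 had a signal of 425, with 219 in replicate 1 and 183 in replicate 2, at a promoter shared with Rev1, a translesion DNA polymerase gene. MED27 had 383, with 251 in replicate 1 and 131 in replicate 2, 143 bp upstream of its TSS and 135 bp upstream of elm. MED31, of the middle module, had 379, with 235 in replicate 1 and 145 in replicate 2, at a summit within 500 bp of the TSSs of both CG9775 and slx1.

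MED17, the scaffold of the head module, had 352, with 220.2 in replicate 1 and 118 in replicate 2, and the promoter was shared with CG12321. The replicate 2 peak of MED17 had its summit 71 bp from the conservative one and did not cover the conservative one. The other 3 were below 200 in signal. MED4, of the middle module, had 196, with 92.0 in replicate 1 and 103 in replicate 2, and no other gene shared its summit. MED8, of the head module, had 166, with 111 in replicate 1 and a ranked peak of 49.4 in replicate 2. MED19 had 152, with 111 in replicate 1 and 53.4 in replicate 2, but the replicate 2 summit lay 292 bp from the conservative one.

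**Figure D2:**
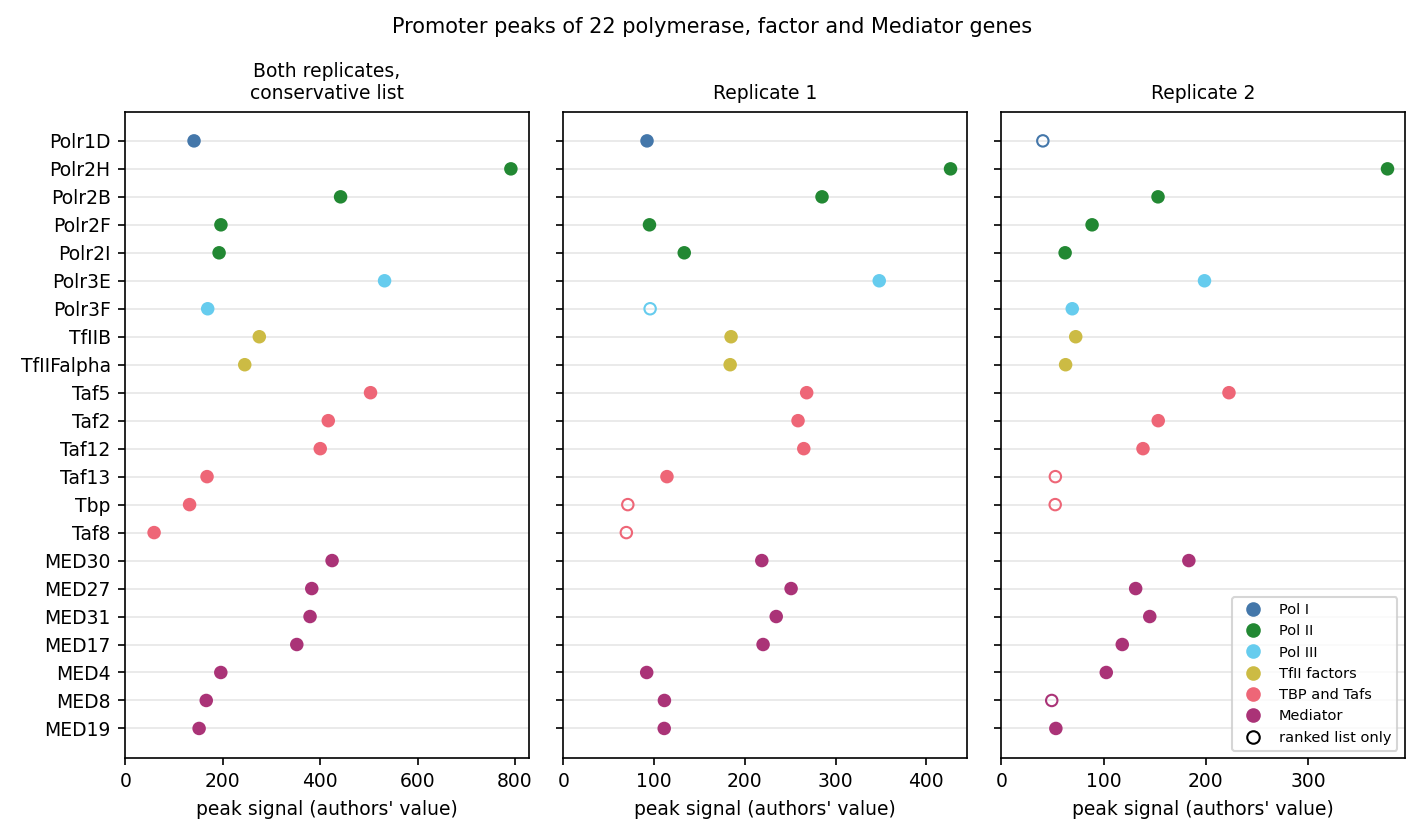
Signal of the promoter peak of each of the 22 bound genes in the conservative list and in each replicate's own list, coloured by complex. Open circles are peaks found in a replicate's ranked list and not in its thresholded list, and Polr2H is at the right in each panel, with 792, 427 and 378.

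Among the unbound Mediator genes, MED7, of the middle module, had thresholded promoter peaks of 229 in replicate 1 and 127 in replicate 2, and none in the conservative or less strict list. No peak of any list of the series overlapped its promoter window. Of the 18 machinery genes with thresholded summits in both replicates, MED7 and Taf4 were the 2 without a conservative one, 11.1%, against 89 of 1815 genes (4.9%) in all. MED25 had 141 in replicate 1 and 174 in the less strict list. MED21 had 117 in replicate 1 alone, and MED6 had 58.1 in replicate 2 alone. The remaining unbound genes with a thresholded peak were Polr3G at 57.5, TfIIA-L at 76.1 and TfIIEbeta at 75.4, each in replicate 2 alone.

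Most of the 58 unbound genes were far from any conservative summit. The median distance to the nearest one was 8501 bp, 37 genes were more than 5000 bp away, and none had a conservative summit inside the gene. In the ranked lists 10 of the 58 had a promoter summit in both replicates, 12 in 1 replicate and 36 in neither. These distances and counts were not taken over all unbound genes, so they are not read as particular to the machinery genes. MED15 had a ranked peak of 223 in replicate 1 that was not in the thresholded list, beside 20.0 in replicate 2. Just outside the 500 bp limit was TfIIS, an elongation factor, with a conservative summit of signal 170.1 at 769 bp. Farthest inside it, by the nearest summit, were MED8 at 278 bp and TfIIB at 274 bp. Taf8, whose strongest summit was at 328 bp, had a weaker one of signal 40.8 at 126 bp.

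Over the 22 bound genes the median signal was 260.3 (quartiles 168 to 413), beside 241 (159.8 to 362) over all 2541 bound genes. The summit fell in a thresholded peak of both replicates at 14 genes, 63.6%, beside 66.3% of all bound genes. It fell in one of neither replicate at 2 genes, Tbp and Taf8, 9.09% beside 10.8%. In signal and in replication the bound machinery genes therefore sat near the middle of bound genes in general.

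The summits lay upstream of the start site at 21 of the 22 genes, 95.5% beside 89% of all bound genes. At 18 genes, 81.8%, the summit was 50 to 300 bp upstream, beside 65.2% of all bound genes, and the median distance was 172.5 bp beside 158 bp. By annotation 15 summits were outside genes, 4 were in introns and 3 were in 5′ untranslated exons, which were those of Taf2, Taf13 and TfIIFalpha. None was in a coding exon.

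Sharing was the rule among the bound genes. At 19 of 22 the summit was within 500 bp of another gene's TSS, 86.4%, beside 52.3% of all bound genes, and at each of the 19 a partner was on the opposite strand. At 15 of the 19 the summit was upstream of both TSSs, taking for each gene the TSS nearest to the summit. Taf2 is among the 15, but another CalpB TSS lay 79 bp from that of Taf2, and the summit was downstream of it. At 7 of the 19 the summit was nearest to the machinery gene's own TSS, counting Taf8 and Mvb12, which were equally far. The other 12 were nearer to the partner, so a nearest-gene assignment would have given them to brat, CG11247, CG10584, nesd, CalpB, Pex6, Bug22, CG1024, elm, Rev1, CG9775 and CG8929. MED4, Polr2F and Tbp had a summit to themselves. The counts of summits upstream of both TSSs, and of summits nearest to the gene's own TSS, were not taken over all bound genes. They are not read as particular to the machinery genes.

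**Figure D3:**
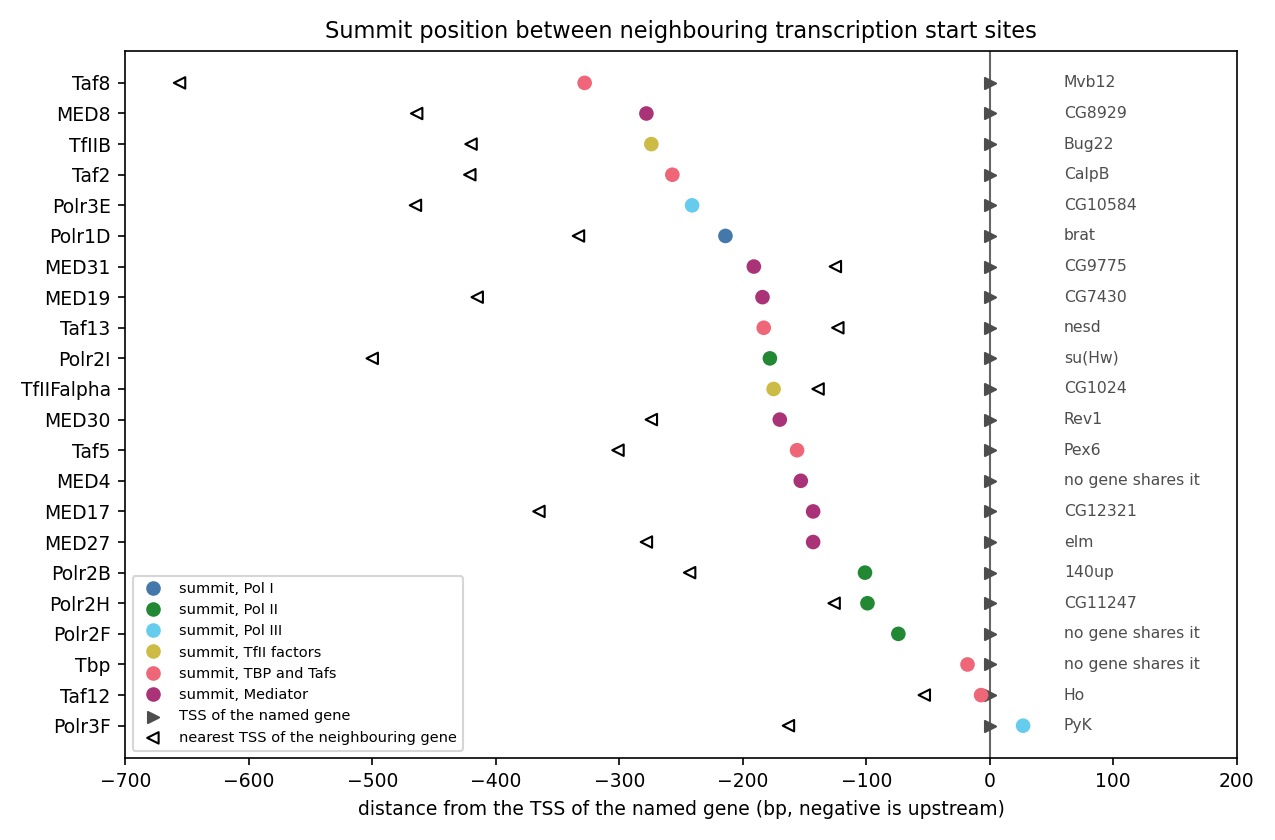
Position of each summit (filled circle) relative to the TSS of the named machinery gene at 0, in bp with upstream negative, with the nearest TSS of the gene that shares it (open triangle) and that gene's name. In 15 of the 19 shared promoters the summit lies between the 2 diverging start sites drawn, which at Taf2 leave out a CalpB start site closer to Taf2.

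Base composition at these summits was low in G and C, close to that of other bound genes. The median over 101 bp was 27.7% beside 28.7% of all bound genes, and 9 of the 22 genes (40.9%) were below 25%, beside 35.5%. The lowest were Taf2 at 12.9%, MED17 at 13.9%, Taf5 at 15.8% and Polr2B at 18.8%, and the highest were Tbp at 46.5% and Polr2F at 45.5%. In windows of the same length all centred 172 bp upstream of the TSS, the median summit distance of the bound machinery genes, the median was 25.7% at the bound machinery genes, 30.2% at the unbound ones and 36.6% over all TSSs. Both the window's place and the split into bound and unbound genes come from the peaks. The summit base was soft-masked, as repeat or low-complexity DNA is, at 7 genes, 31.8% beside 30.3% of bound genes, and the longest A and T run had a median of 10.5 bases beside 12. The part of base composition in the peak calls was not tested.

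**Figure D4:**
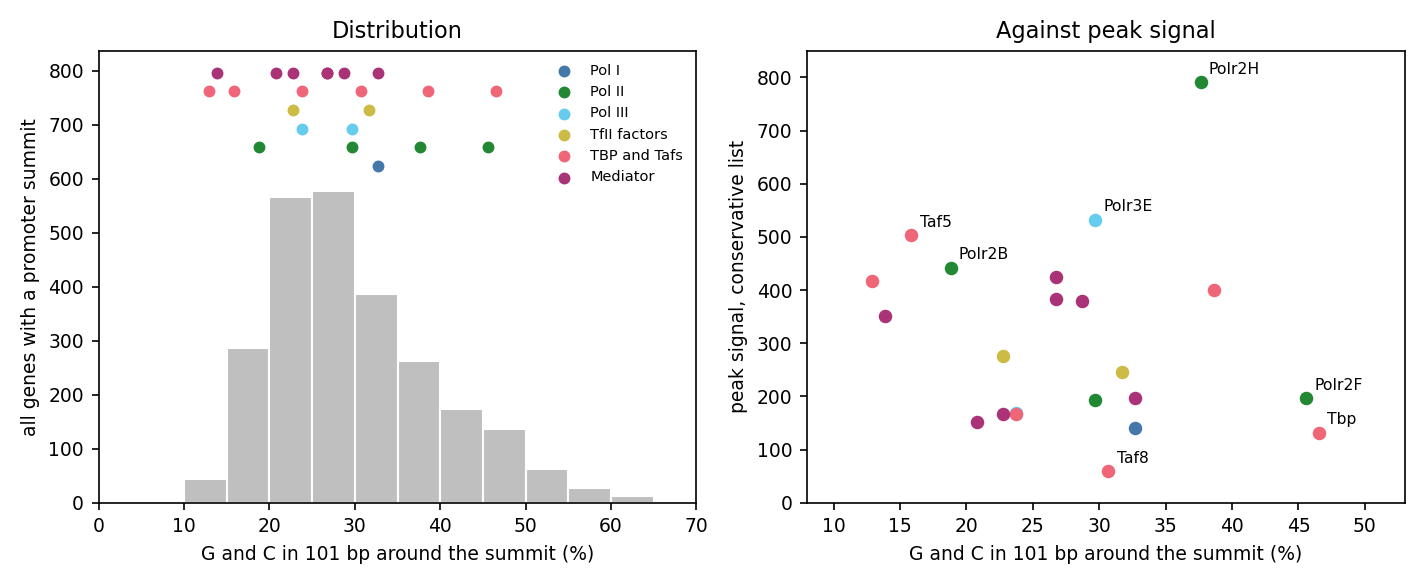
G and C in the 101 bp around each summit, in percent: all 2541 bound genes as a histogram with the 22 machinery genes as dots above it (left), and the 22 genes against their conservative peak signal (right). The dots span 12.9 to 46.5%, and Polr2H, the strongest peak, is at 37.6%.

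Of 9 short motifs searched on both strands within 50 bp of the summit, 3 were found. TATAAA, the letters of the TATA box, was at 9 of 22 genes (MED17, MED27, MED8, Polr1D, Polr2I, Taf12, Taf13, Taf2 and Taf5), 40.9%, beside 30.8% of bound genes and 18.3% of 19276 windows of the same length placed upstream of TSSs. TATCGATA, the element bound by Dref, was at Tbp alone, 4.55% beside 3.19% and 1.22%. Its core CGATA, which every TATCGATA holds, was at 5 genes (MED19, MED27, Polr2F, Tbp and TfIIFalpha), 22.7% beside 19.2% and 14.5%. Short motifs recur by chance in windows of this length, and TATAAA does so more where A and T are frequent.

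The other 6 motifs were at none of the 22 summits. Among bound genes GGTCACAC was at 1.34%, CAGCTG at 3.54%, GAGAG, the GAGA factor motif, at 6.53%, TGGTATTT at 1.73%, CATCCCTA at 0.275% and CACGTG at 0.63%. Their shares over the windows upstream of TSSs were 0.633%, 4.32%, 13.4%, 0.892%, 0.161% and 1.12%.

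The CGATA core is shown in its setting for MED27 (chr3R:5654946-5655046, plus strand) and MED19 (chr3L:17846635-17846735, minus strand), with capitals marking CGATA or its complement TATCG. In MED27 the core sits at the edge of the window, beside a TATAAA, and in MED19 nearer the summit at the centre.
MED27: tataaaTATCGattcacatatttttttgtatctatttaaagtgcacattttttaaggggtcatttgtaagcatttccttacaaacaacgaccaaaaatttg
MED19: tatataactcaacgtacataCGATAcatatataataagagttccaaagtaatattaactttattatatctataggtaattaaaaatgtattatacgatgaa

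Other genes of initiation and elongation that the symbol rule leaves out gave a like share, with 9 of 33 bound, 27.3% (95% exact interval 13.3 to 45.5%), beside the same 18.2% background. In TFIIH, the helicase and kinase factor, 3 of 10 were bound: Ssl1 at a signal of 585, in a promoter shared with Chro, Xpd at 293 and CycH at 266. Of the polymerase III and TBP-related factors 2 of 5 were bound, Bdp1 at 546 and Brf at 439, both subunits of TFIIIB. In the kinase module of Mediator skd, which encodes MED13, was bound at 225, and Cdk8, CycC and kto were not. Among 14 pausing and elongation genes Nelf-E had 437, hyx 374 and Su(Tpl) 118. TH1, another subunit of the pausing complex NELF, had thresholded promoter peaks of 284 in replicate 1 and 193 in replicate 2 with no conservative summit, like MED7 and Taf4.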

How the data were processed

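ChIP-seq peak lists on assembly dm6 were analysed for 2 biological replicates of 1 group, and groups and replicate numbers are those of the labels. Per the labels, chromatin was sonicated to 200 to 800 bp. The aligner and peak caller were not given in the sources used here; control libraries were not analysed here. Signal is the authors' deposited value for each peak, with no stated scale. Peaks were called per replicate and on both replicates together, and 6 lists were used. In the 4 ranked lists 32 value columns could not be matched to a replicate and were left out. Read depth is unknown, so no detection limit is given.

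Summits were assigned to genes within 500 bp of a TSS of the Ensembl release 115 annotation (BDGP 6.54), restricted to protein-coding genes on the nuclear arms. RefSeq's copy of that assembly supplied bases and soft-masking. The assignment was tested on simulated data. Intervals are exact (Clopper-Pearson, 95%). Tables were handled with pandas 2.3.3 and numpy 2.4.6 under Python 3.11.15, intervals with scipy 1.17.1 and plots with matplotlib 3.10.9. Every bound gene is named, as are unbound genes with a thresholded or less strict promoter summit, the polymerase II subunits, Tbp and Taf1. Other unbound genes named, the A and T runs, the 2 CGATA windows and the look at all series lists for Taf4 and MED7 were chosen after their values were seen. The genes and lists themselves were chosen with earlier results of these data known. Alternatives covered the window, list, replicate, signal, masking, TSS set, shared promoters and paralogues.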

Additional observations from a re-analysis of the deposited data

How the results depend on the processing

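The count of 22 bound genes was 19 with a 250 bp window (23.8% against 14% of all genes), which lost MED8, Taf2 and TfIIB. It was 23 with a 1000 bp window (28.8% against 21.3%), which added TfIIS. The thresholded list of replicate 1 alone gave 23 (28.8% against 17.3%), of which 19 were among the 22. That of replicate 2 alone gave 24 (30% against 18.4%), of which 17 were among the 22. The count was 14 (17.5%) when the summit had to lie in a thresholded peak of both replicates. It was 15 (18.8%) when signal had to reach the list median, and the background share was 12.1% in both cases. Leaving out masked summits gave 15 genes, 18.8% against 13.7%. With 1 TSS per gene the count was 21, 26.2% against 16%, and Polr1D was lost. With shared promoters counted once 22 of 79 were bound, 27.8% against 16.4%. The median signal of 260.3 was 382.9 at or above the list median and 391.6 with both replicates, and 104.1 to 184.9 in single-replicate lists, whose signal is on their own scale. The median distance of 172.5 bp was 153 bp with the 250 bp window and 136.5 to 160 bp in single-replicate lists. A limit on signal or on distance moves these medians by construction. The cause of the other shifts was not tested. No paired analysis was possible because there was 1 group. Depth is unknown, so an absent peak is not an absence of binding.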
